A study of Ovis aries with 6 samples.

Results

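The vascular endothelial growth factor (VEGF) and angiopoietin systems were examined in sheep (Ovis aries) ovary through 10 genes, of 14480 gene rows in all: the ligands VEGFA, VEGFB, VEGFC and ANGPT2, the receptor kinases FLT1, KDR, FLT4 and TEK, and the co-receptors NRP1 and NRP2. They were chosen by symbol, and all 10 were listed. The libraries were made from polyadenylated RNA of ovaries in estrus, with 3 libraries of Hu sheep and 3 of Mongolian sheep; Hu sheep are known for large litters and Mongolian sheep for mostly single lambs, so the comparison sets ovaries of high against low prolificacy. The labels name neither the age of the ewes nor any treatment, and do not say whether the 3 libraries of a breed came from separate animals, so a p-value measures only the spread between these libraries. The series title speaks of exosomes, whereas each sample is labelled as ovary, and the values are described here as ovary values. Values are given in FPKM (fragments scaled to transcript length and to the library total), a measure per length that allows genes to be compared, and are listed for replicates 1, 2 and 3 in that order.

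VEGF ligands drive the growth of blood and lymph vessels. VEGFA acts on endothelial cells mainly through KDR, while FLT1 binds VEGFA and VEGFB and acts largely as a trap; VEGFC acts through FLT4, the receptor of lymphatic endothelium, and NRP1 and NRP2 are co-receptors that strengthen these signals. Angiopoietins act through TEK, where ANGPT1 stabilises vessels and ANGPT2 usually loosens them. In the ovary, capillaries form around growing follicles and invade the ruptured follicle as it becomes a corpus luteum, and granulosa and luteal cells are known sources of VEGFA.

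The libraries differed widely in how many genes they listed above 0 FPKM, and this touches most of the values below. Hu 1 listed 6500 genes (44.9% of all rows), Hu 2 7971, Hu 3 13342 and the Mongolian libraries between 10547 and 11463. Of the 10 genes described, 4 were above 0 in Hu 1, 7 in Hu 2, 10 in Hu 3 and 9, 10 and 8 in the Mongolian libraries. A value of 0 is described only as listed at 0, because without read counts a missing transcript and a missed one cannot be told apart. The 2 most abundant rows, both assembled genes without a symbol, held 74.3%, 76.5% and 53.3% of the summed FPKM in Hu 1, 2 and 3 and 75.1%, 74.2% and 79.7% in the Mongolian libraries, so the other rows of Hu 3, members included, shared a larger part of their library. Fewer cells of a type and less RNA per cell cannot be told apart in these bulk samples either.

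No gene of the 2 systems passed the test between breeds. Of the 10 genes, 9 were abundant enough to test, and 0 were called (limma p under 0.05 after Benjamini-Hochberg adjustment); over all 9971 genes tested 0 did (0%), and 372 had an unadjusted p under 0.05. The lowest adjusted p of the 9 was 0.998 and the lowest unadjusted limma p was 0.116. Log2 differences ran from -1.58 for VEGFB to 0.75 for FLT4, with a median of -0.26 against -0.28 over all genes tested. FLT4 was the single member in which the breeds did not overlap, with all 3 Hu values above all 3 Mongolian values, a pattern that 1.88% of all genes tested showed; the opposite pattern was shown by 0 of the 9 members and by 6.05% of all genes tested.

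**Figure D1:**
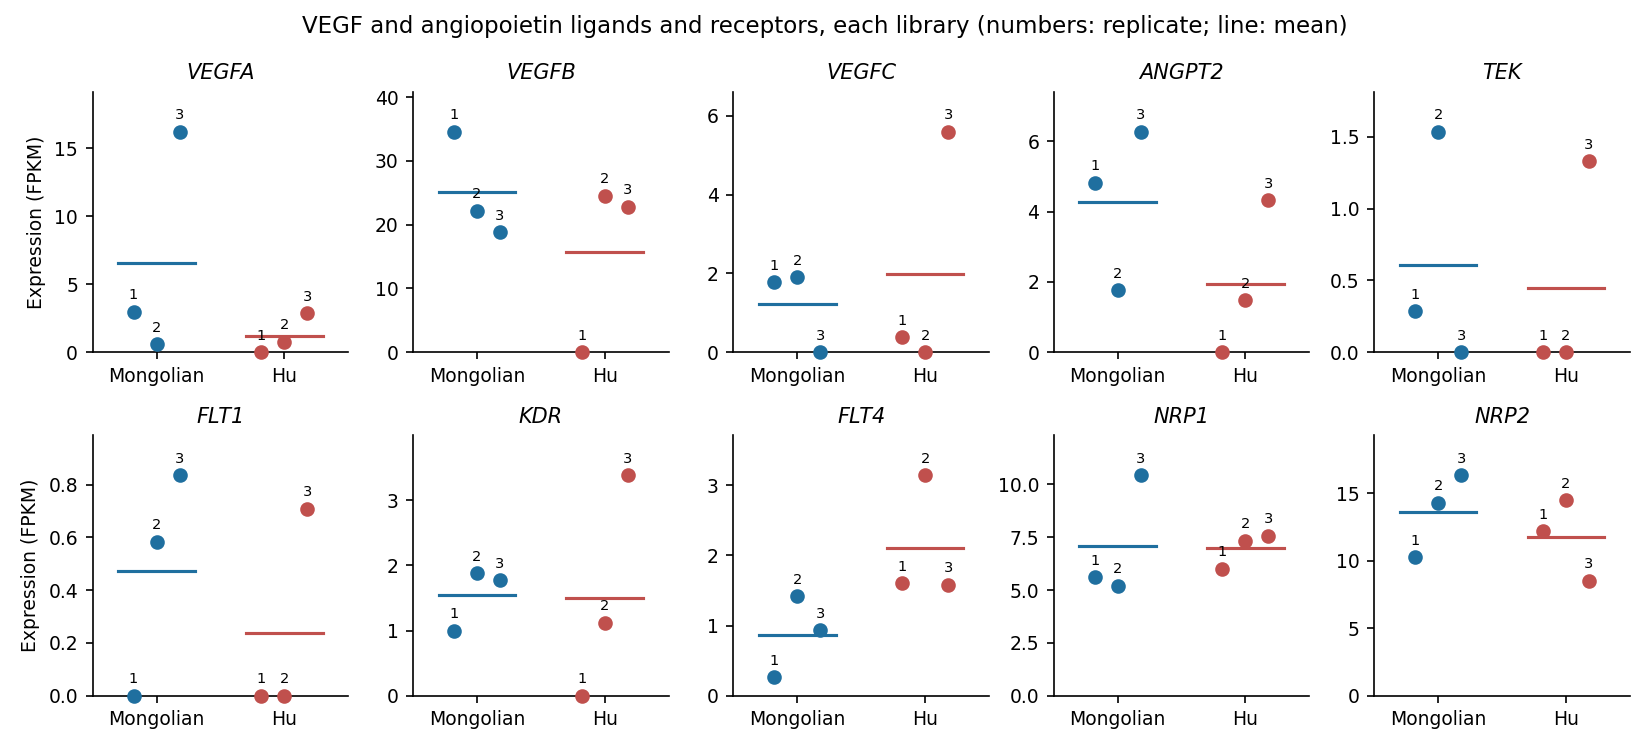
FPKM of each of the 10 genes in each library, Mongolian on the left and Hu on the right of each panel, with the replicate number above each point and a line at the mean of 3 libraries; each panel has its own axis from 0. FLT4 is the panel in which the Hu points all lie above the Mongolian points, and Hu 1 is listed at 0 for VEGFA, VEGFB, ANGPT2, TEK, FLT1 and KDR.

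Among the ligands, VEGFA, the main signal for new capillaries, stood at 2.96, 0.57 and 16.2 FPKM in the Mongolian libraries and at 0, 0.75 and 2.88 in the Hu libraries. Mongolian 3 was far above the other 5 libraries, Mongolian 1 lay just above Hu 3, and Mongolian 2 lay between Hu 1 and Hu 2. The log2 difference was -1.33 with a standard error of 0.91, and it was -0.40 without Mongolian 3 and -2.12 without Mongolian 2. Of the granulosa cell markers 7 of 11 were listed, and their summed level was 85.5, 69.1 and 131 FPKM in Mongolian and 279, 45.3 and 145 in Hu. The sum was highest in Hu 1, where VEGFA was listed at 0. In the other 5 libraries Mongolian 2 and Hu 2 were lowest in both the sum and VEGFA. The highest sum of those 5 was in Hu 3, where VEGFA was below Mongolian 1 and Mongolian 3. The part of granulosa cells in the VEGFA values was not tested. The inhibin subunit gene INHA, made by granulosa cells, stood at 25.9, 15.8 and 40.4 FPKM in Mongolian and 99.1, 15.6 and 45.2 in Hu, and INHBA at 13.98, 26.6 and 6.72 in Mongolian and 82.96, 9.72 and 32.8 in Hu. Of the other 5 listed markers 3 had negative log2 differences, at -2.08 for HSD17B1, -1.57 for FST and -0.80 for NR5A2, while SERPINE2 was at 0.86 and FSHR at 0.02. All 9 theca and luteal markers were listed, and their summed level was 30.2, 22.2 and 412 FPKM in Mongolian and 126, 26.5 and 186 in Hu. The oxytocin gene OXT had the highest mean of the 9, at 72.6 FPKM, and so weighs most in the sum. Log2 differences of the 7 tested ran from -0.75 for HSD3B1 to 2.30 for OXT, with 4 above 0 and 3 below. Mongolian 3 was highest in both the theca and luteal sum and VEGFA, while Hu 1 was above Mongolian 1 in that sum with VEGFA at 0. The part of theca and luteal cells in the VEGFA values was not tested either.

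VEGFB, a ligand of FLT1 that does little for vessel sprouting in most tissues, was the most abundant of the 10 genes. It stood at 34.6, 22.2 and 18.8 FPKM in Mongolian and at 0, 24.5 and 22.8 in Hu. The Hu 2 and Hu 3 values lay within the Mongolian range, and Hu 1 alone was listed at 0. The log2 difference of -1.58 (standard error 0.95) came to -0.04 without Hu 1 and to -2.38 without Hu 2. Such a value was uncommon but not unique to VEGFB: of 924 genes with at least 10 FPKM in each of the other 5 libraries, 30 (3.25%) were listed at 0 in Hu 1, against 5 of 802 in Hu 2 and at most 1 in any other library.

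VEGFC, the ligand of FLT4 that directs lymphatic growth, stood at 1.78, 1.90 and 0 FPKM in Mongolian and at 0.38, 0 and 5.60 in Hu. Both breeds held a library at 0, and Hu 3 was highest. The log2 difference was 0.06 with a 95% confidence interval from -1.60 to 1.72, and it turned to -0.77 without Hu 3 and to -0.44 without Mongolian 3. CCBE1, a secreted protein that helps to activate VEGFC, was at 2.17, 3.14 and 1.91 FPKM in Mongolian and 0, 3.93 and 6.73 in Hu, with Hu libraries at both ends of the range.

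ANGPT2, the angiopoietin that loosens vessels, stood at 4.82, 1.76 and 6.27 FPKM in Mongolian and at 0, 1.48 and 4.33 in Hu. Each breed spanned low and high values, and Mongolian 2 lay close to Hu 2. The log2 difference was -1.05 with a standard error of 0.81, and it was -0.43 without Hu 1 and -1.63 without Hu 3. ANGPT1, the stabilising ligand of the same receptor, was listed at 0 in 5 libraries and at 0.93 FPKM in Hu 3, which left it untested. In each of the 6 libraries ANGPT2 was at or above ANGPT1, with both listed at 0 in Hu 1.

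VEGFB made up most of the summed VEGF ligand level in 5 libraries. The share of VEGFB in the sum of VEGFA, VEGFB and VEGFC was 88.0%, 89.99% and 53.7% in Mongolian and 97.03% and 72.9% in Hu 2 and Hu 3, while Hu 1 held VEGFC alone, at 0.38 FPKM. These shares are taken within a library, so a scaling between libraries does not move them. VEGFA took its largest part in Mongolian 3, where VEGFB was 1.16 times as high, against 38.8 times in Mongolian 2 and 32.7 times in Hu 2.

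**Figure D2:**
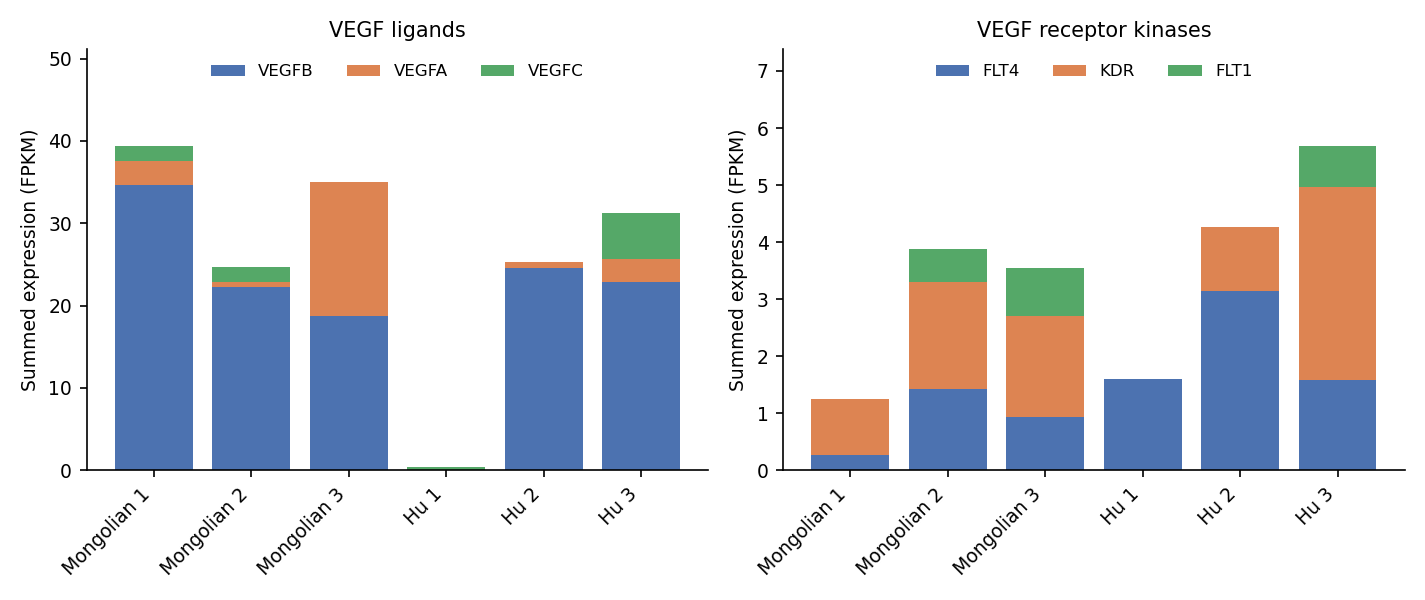
Stacked bars of FPKM in each library for the VEGF ligands (left) and the VEGF receptor kinases (right), with both axes starting at 0. VEGFB fills most of the ligand bar except in Hu 1, and FLT4 takes 100% of the receptor bar in Hu 1 and 73.7% in Hu 2, against 20.9% to 36.5% in the other 4 libraries.

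Among the receptor kinases, FLT4 stood at 0.26, 1.42 and 0.93 FPKM in Mongolian and at 1.60, 3.15 and 1.58 in Hu. The lowest Hu value, 1.58 in Hu 3, was above the highest Mongolian value, 1.42 in Mongolian 2, by less than the spread within either breed. The mean ± SD over 3 libraries was 2.11 ± 0.90 in Hu and 0.87 ± 0.58 in Mongolian, and the log2 difference was 0.75 with a standard error of 0.67, a 95% confidence interval from -0.68 to 2.18 and a limma adjusted p of 0.998. It stayed above 0 without each library in turn, from 0.49 without Mongolian 1 to 0.96 without Mongolian 2. At these levels FLT4 was not an abundant gene in any library: of the rows above 0 in the same library, 4.61% to 30.8% were lower than FLT4 in Mongolian and 30.3% to 47.2% in Hu.

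Markers of endothelium went partly with and partly against FLT4. In Hu 2, where FLT4 was highest at 3.15 FPKM, the summed blood endothelium markers were at their lowest in Hu, at 23.9 FPKM. CDH5 was at its lowest there, at 0.16, and VWF at 2.38 was below Mongolian 1 and Mongolian 2 (2.87 and 2.53), while LYVE1 was at its highest. PECAM1, an adhesion protein of endothelial junctions, stood at 1.04, 2.32 and 0.91 FPKM in Mongolian and 5.23, 2.24 and 8.36 in Hu, and LYVE1, a hyaluronan receptor of lymphatic endothelium, at 0, 2.59 and 0 in Mongolian and 1.61, 8.89 and 1.86 in Hu. PROX1, the transcription factor that defines lymphatic endothelium, was at 3.87, 7.70 and 2.99 FPKM in Mongolian and 3.54, 7.63 and 14.02 in Hu. All 6 lymphatic markers on the list were in the table, and their summed level ran from 23.6 to 38.6 FPKM in Mongolian and from 30.2 to 63.5 in Hu; 12 of 16 blood endothelium markers were in the table, with sums from 23.6 to 36.2 and from 23.9 to 50.3. The ratio of FLT4 to PECAM1 was 0.25, 0.61 and 1.03 in Mongolian and 0.31, 1.40 and 0.19 in Hu, and that of FLT4 to VWF, the clotting factor carrier of endothelium, 0.091, 0.56 and 0.59 in Mongolian and 0.26, 1.32 and 0.34 in Hu. The ratio of FLT4 to the summed blood endothelium markers was 0.010, 0.039 and 0.040 in Mongolian and 0.048, 0.13 and 0.031 in Hu, with Hu 1 and Hu 2 above all Mongolian libraries and Hu 3 within their range. The breeds thus overlapped in all 3 ratios. PECAM1 and LYVE1 had the highest log2 differences of their lists, at 1.29 and 1.45. Of the blood endothelium markers 11 were tested and 0 passed, with 8 differences above 0 and 3 below: CD34 at -1.35, EGFL7 at -0.52 and TIE1 at -0.33. Of the lymphatic markers 5 were tested and 0 passed, with 4 differences above 0 and 1 below, PDPN at -0.55. Over all genes tested 32.3% were above 0. CCL21, the most abundant of the 6 by mean (19.0 FPKM), had a log2 difference of 0.76. The part of endothelial cell number in the FLT4 values was not tested.

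KDR, the main signalling receptor for VEGFA, stood at 0.99, 1.88 and 1.78 FPKM in Mongolian and at 0, 1.12 and 3.39 in Hu. The Hu libraries lay at both ends of the range and enclosed all Mongolian values. The log2 difference was -0.26 with a 95% confidence interval from -1.79 to 1.27, and it turned to 0.28 without Hu 1. CDH5, the junction protein of endothelial cells that binds KDR, stood at 0.35, 1.28 and 0.89 FPKM in Mongolian and at 2.95, 0.16 and 2.29 in Hu, so that Hu 1 held the highest CDH5 value of the 6 while its KDR was listed at 0.

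FLT1, the receptor that traps VEGFA and VEGFB, was the lowest of the 10 genes by mean over the 6 libraries. It stood at 0, 0.58 and 0.84 FPKM in Mongolian and at 0, 0 and 0.71 in Hu, so it was above 0 in 3 libraries. The log2 difference was -0.26 with a standard error of 0.46, and it ran from -0.51 without Hu 3 to -0.07 without Mongolian 3. At this level 13.2% to 15.3% of the rows above 0 in the same library were lower.

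TEK, the angiopoietin receptor, stood at 0.29, 1.54 and 0 FPKM in Mongolian and at 0, 0 and 1.33 in Hu, and passed 0.5 FPKM in too few libraries to be tested. With no filter its log2 difference was -0.16 with a 95% confidence interval from -1.27 to 0.95. TIE1, the related receptor that joins TEK in a complex, was at 0.19, 0.73 and 2.65 FPKM in Mongolian and at 0, 0 and 2.77 in Hu. PTPRB, the phosphatase that silences TEK in endothelium, was above 0 in each library, at 0.27, 1.14 and 0.79 in Mongolian and 0.22, 0.80 and 0.82 in Hu. Hu 1 and Hu 2 thus listed PTPRB but neither TEK nor TIE1.

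The summed level of FLT1, KDR and FLT4 overlapped between breeds, at 1.26, 3.88 and 3.54 FPKM in Mongolian and 1.60, 4.27 and 5.68 in Hu. Its composition differed among the Hu libraries more than among the Mongolian ones. FLT4 made up 20.9%, 36.5% and 26.3% of it in Mongolian and 100%, 73.7% and 27.9% in Hu, and KDR 79.1%, 48.5% and 50.1% in Mongolian and 0%, 26.3% and 59.6% in Hu. The Hu 3 share of FLT4 lay within the Mongolian range, and the other Hu libraries listed FLT1 at 0.

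Like FLT4, both neuropilins were above 0 in all 6 libraries, and they were the most abundant of the receptors. NRP2, the co-receptor of VEGFC and FLT4 that also binds semaphorins, stood at 10.3, 14.3 and 16.3 FPKM in Mongolian and at 12.2, 14.5 and 8.51 in Hu. NRP1, the co-receptor of VEGFA and KDR, stood at 5.61, 5.20 and 10.4 in Mongolian and at 6.02, 7.32 and 7.58 in Hu. The means of NRP2 were 13.6 ± 3.10 in Mongolian and 11.7 ± 3.02 in Hu, and those of NRP1 7.08 ± 2.91 and 6.97 ± 0.84 (SD, n = 3 each). The breeds overlapped in both genes. The log2 differences were -0.21 for NRP2 (95% confidence interval from -1.37 to 0.95) and 0.03 for NRP1 (from -1.25 to 1.32).

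NRP2 exceeded NRP1 in 6 of 6 libraries. The ratio was 1.83, 2.75 and 1.57 in Mongolian and 2.03, 1.98 and 1.12 in Hu, with Hu 3 lowest. Together the neuropilins were 2.83 to 12.6 times as high as the 3 VEGF receptor kinases summed, a range that both breeds shared: 5.03 to 12.6 in Mongolian and 2.83 to 11.4 in Hu. Of the class 3 semaphorins, the other ligands of neuropilins, SEMA3C was at 0.99, 0.95 and 1.09 FPKM in Mongolian and 2.16, 0 and 2.77 in Hu, and SEMA3A and SEMA3F were above 0.5 FPKM in Hu 3 alone, at 1.54 and 1.41.

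By mean over the 6 libraries the order of levels was VEGFB (20.5 FPKM), NRP2 (12.7), NRP1 (7.03), VEGFA (3.89), ANGPT2 (3.11), VEGFC (1.61), KDR (1.53), FLT4 (1.49), TEK (0.53) and FLT1 (0.35). Only the step from NRP2 to NRP1 held in all 6 libraries, and those from VEGFB to NRP2 and from NRP1 to VEGFA in 5. VEGFA stood above ANGPT2 in 1 library, Mongolian 3, although its mean was higher. The steps among VEGFC, KDR and FLT4, and that from FLT4 to TEK, held in 4 of 6 libraries each. Those from ANGPT2 to VEGFC and from TEK to FLT1 held in 3, with TEK and FLT1 both at 0 in 2. These neighbours thus did not differ beyond the spread between libraries.

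**Figure D3:**
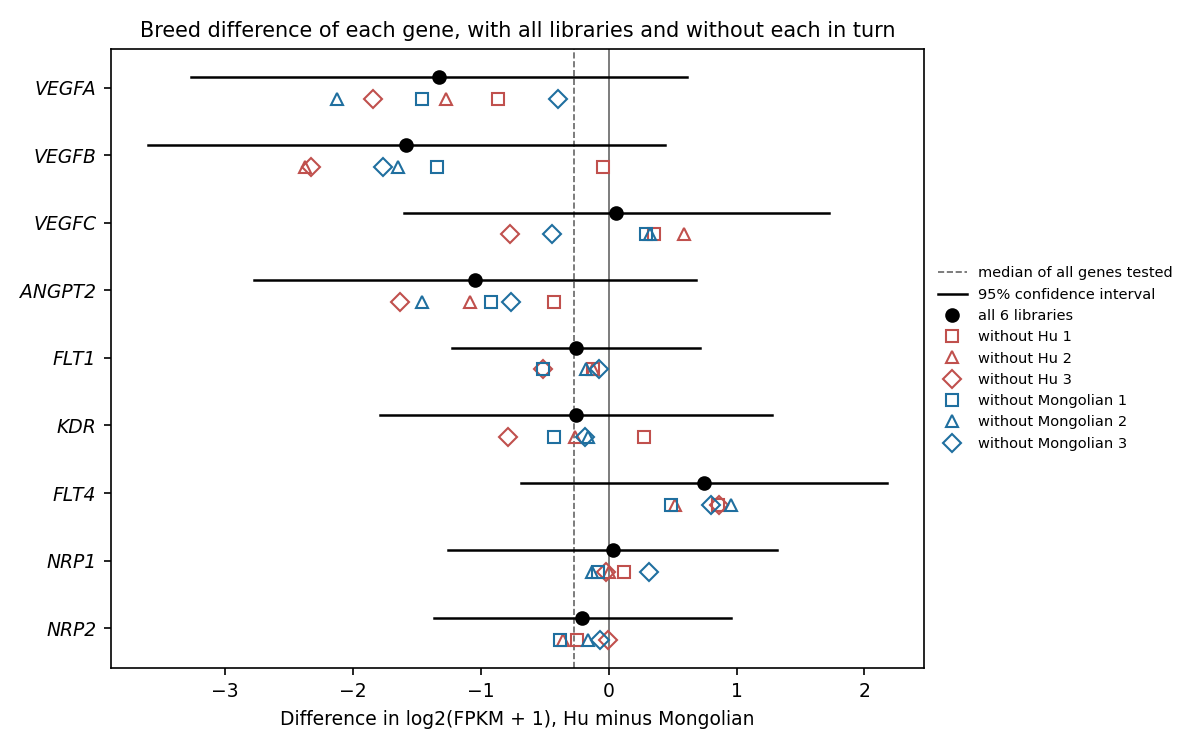
Difference in log2(FPKM + 1), Hu minus Mongolian, for the 9 tested genes: filled points with 95% confidence intervals from limma for all 6 libraries, and open symbols for the value without each library in turn; the dashed line marks the median of all genes tested, -0.28. All 9 intervals cover 0, VEGFB moves from -1.58 to -0.04 without Hu 1, and VEGFC, KDR and NRP1 have symbols on both sides of 0.

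Of the 9 tested members, 3 had a positive and 6 a negative log2 difference with the values as deposited; the positive ones numbered 2 under median-of-ratios scaling, where VEGFC turned, 1 when the 2 most abundant assembled genes were removed and the libraries rescaled to a common sum, where VEGFC and NRP1 turned, and 3 under quantile normalization. Over all genes tested 32.3% were positive as deposited. With the median of all genes subtracted, the log2 difference was 1.02 for FLT4, -1.31 for VEGFB, -1.05 for VEGFA and -0.77 for ANGPT2, and between 0.02 and 0.07 for KDR, FLT1 and NRP2. Without Hu 1 the median of all genes was 0.01 and that of the members -0.04, and without Hu 3 they were -0.66 and -0.77.

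Across the 6 libraries the closest pair of members was VEGFA and ANGPT2, with a Pearson r of 0.87 on log2(FPKM + 1), followed by VEGFB and ANGPT2 (0.80). NRP2 and VEGFC ran most opposite, at -0.83. FLT4 stood apart from the other receptor kinases, with r of -0.01 to KDR and -0.08 to FLT1, while KDR and FLT1 had an r of 0.77. These values describe 6 libraries that differ in how many genes they list. The members at 0 in Hu 1 share that zero, which enters the r values among VEGFA, VEGFB, ANGPT2, KDR and FLT1.

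The genes most like each member were found among the tested genes that have a symbol, by the same measure over the 6 libraries. Each r is among the highest of many, over only 6 libraries, so a high r can arise for any gene and does not show a link. Those closest to FLT4 were PITPNM1 (r = 0.96), RRAS (0.96) and NPR1 (0.95). PITPNM1 stood at 0.59, 2.62 and 2.24 FPKM in Mongolian and at 2.29, 5.04 and 3.26 in Hu, and RRAS and NPR1 were at 0 in Mongolian 1. For VEGFA they were ZNF609, MYO18A and HNRNPUL2 (each 0.99), for ANGPT2 CSDC2, ADSS1 and FBXO21 (each 0.99), and for NRP2 MXRA8 (0.96), PELP1 (0.92) and DTX2 (0.91). CSDC2, ADSS1 and FBXO21 were at 0 in Hu 1 alone, as was ANGPT2. VEGFB was closest to VTA1 (0.997), BCL3 and RUNX1T1, and VTA1 and BCL3 were likewise at 0 in Hu 1 alone. NRP1 was closest to TBC1D2, PLEKHG1 and FSHR (0.97, 0.97 and 0.96), KDR to OLA1, DPYSL2 and TBC1D9 (0.997, 0.996 and 0.99), and VEGFC to SLC16A14, GDI2 and SNX5 (0.996, 0.99 and 0.99). TBC1D2 and FSHR were at 0 in Mongolian 1, Mongolian 2 and Hu 1, where NRP1 was above 0. Both were highest in Mongolian 3, at only 2.63 and 1.95 FPKM. TBC1D9 was at 0 in Hu 1 alone, as was KDR, and SLC16A14 was at 0 in Mongolian 3 and Hu 2, as was VEGFC. The genes closest to FLT1, namely UGCG, MGST3 and HDHD5, were at 0 in the same 3 libraries as FLT1.

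Other genes of the pathway were taken from lists written by function. In the wider family of ligands, receptors and modulators, 8 of 15 genes were listed and 5 were tested; 0 passed in either direction and the median log2 difference was -0.09. ANGPTL4, a secreted lipase inhibitor of the angiopoietin-like family, stood at 6.82, 5.50 and 5.88 FPKM in Mongolian and at 5.14, 2.39 and 5.42 in Hu, so all Hu values lay below all Mongolian ones, as in 6.05% of all genes tested, with a log2 difference of -0.46 (standard error 0.64). PGF, VEGFD, ANGPT4, ANGPTL1, ANGPTL2, PLXNA1 and PLXND1 had no row under their symbols, and their values were not analysed here.

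Oxygen sensing sets VEGFA transcription through the hypoxia-inducible factors. Of 14 genes on that list 11 were tested and 0 passed, with a median of -0.08, 3 above 0 and 8 below, where 32.3% of all genes tested were above 0. HIF1A, the oxygen-labile subunit, stood at 12.6, 8.75 and 17.1 FPKM in Mongolian and 5.02, 13.6 and 20.5 in Hu, and EPAS1, its endothelial relative, at 4.65, 3.06 and 3.77 in Mongolian and 0.62, 6.87 and 6.86 in Hu; in both, Hu 1 was the lowest library. VHL, which marks these factors for degradation, stood at 7.01, 5.77 and 2.10 in Mongolian and 0, 1.73 and 15.7 in Hu, and the oxygen sensor EGLN1 at 8.20, 4.49 and 13.3 in Mongolian and 4.30, 6.06 and 15.3 in Hu. EGLN2, another oxygen sensor, was the member of this list in which the breeds did not overlap, at 8.36, 6.38 and 13.7 FPKM in Mongolian and 3.79, 2.77 and 5.12 in Hu, with a log2 difference of -1.07 and a limma adjusted p of 0.998; this pattern was shown by 6.05% of all genes tested. Of the genes induced by hypoxia 8 of 12 were tested, 0 passed and the median was -0.48. Adrenomedullin (ADM), a vasodilator peptide of that list, stood at 4.05, 2.45 and 9.76 in Mongolian and 3.71, 4.02 and 2.87 in Hu, and the glucose transporter SLC2A1 was above 0.5 FPKM in Mongolian 3 alone, at 2.63.

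Signalling downstream of the receptors had 30 tested genes of 39, of which 0 passed. In this list 6 differences were above 0 and 24 below, with a median of -0.39. Over all genes tested 32.3% were above 0 and the median was -0.28. At an unadjusted limma p under 0.05, 3 were lower in Hu and 0 higher, where over all genes 2.82% were lower and 0.913% higher. They were PXN, a focal adhesion scaffold, at 13.8, 7.87 and 21.8 FPKM in Mongolian and 2.47, 2.69 and 5.28 in Hu, HSPB1, the small heat shock protein phosphorylated on VEGFA signalling, and the kinase MAPK14. HSPB1 was listed at 0 in Hu 1 and Hu 2 but at 179 FPKM in Hu 3, above the Mongolian range of 51.5 to 86.6. MAPK14 behaved alike, at 0, 1.19 and 13.5 in Hu and 10.9 to 11.5 in Mongolian. PLCG1, the phospholipase bound by KDR, was at 7.41, 5.51 and 16.5 FPKM in Mongolian and 3.49, 7.71 and 7.99 in Hu, and NOS3, the endothelial nitric oxide synthase, at 1.57, 0.96 and 3.43 in Mongolian and 0, 0 and 1.32 in Hu. AKT1 had no row under its symbol.

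Of the genes for receptor traffic 13 of 14 were tested and 0 passed, with a median of -0.08. EPHB4, a receptor of venous endothelium, was at 9.76, 4.85 and 9.46 FPKM in Mongolian and 4.98, 7.07 and 4.23 in Hu, and caveolin gene CAV1 at 10.4, 9.83 and 2.35 in Mongolian and 10.7, 0 and 19.7 in Hu. MYO6, a motor of endocytosis, was the member of that list in which all Hu values (2.50, 3.71 and 5.78) lay above all Mongolian values (2.19, 2.17 and 1.83), as in 1.88% of all genes tested. Of 12 Notch and sprouting genes 7 were listed and 3 tested, and 0 passed. The tip cell ligand DLL4 stood at 0.30, 0.38 and 0 FPKM in Mongolian and 0, 0 and 1.61 in Hu, NOTCH4 was above 0 in Mongolian 2 alone, and JAG1 stood at 1.79, 1.92 and 4.93 in Mongolian and 1.93, 1.69 and 2.20 in Hu. HEY2, a Notch target, was at 7.69, 1.55 and 4.37 in Mongolian and 0, 0.43 and 1.64 in Hu, with an unadjusted limma p of 0.0462 and an adjusted p of 0.998.

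Among inhibitors of vessel growth 9 of 13 genes were tested and 0 passed. Their median was 0.16 with 6 differences above 0, where 32.3% of all genes tested were above 0. Thrombospondin 1 (THBS1) stood at 30.7, 34.7 and 45.4 FPKM in Mongolian and 32.1, 41.4 and 52.5 in Hu. COL18A1, the source of endostatin, stood at 8.48, 13.4 and 9.86 in Mongolian and 8.91, 15.02 and 12.1 in Hu, and SERPINF1, which encodes a secreted serpin, at 5.51, 12.3 and 7.41 in Mongolian and 6.03, 10.9 and 14.4 in Hu. The breeds overlapped in each of these, and each was above 0 in all 6 libraries and more abundant there than FLT1, KDR or FLT4.

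**Figure D4:**
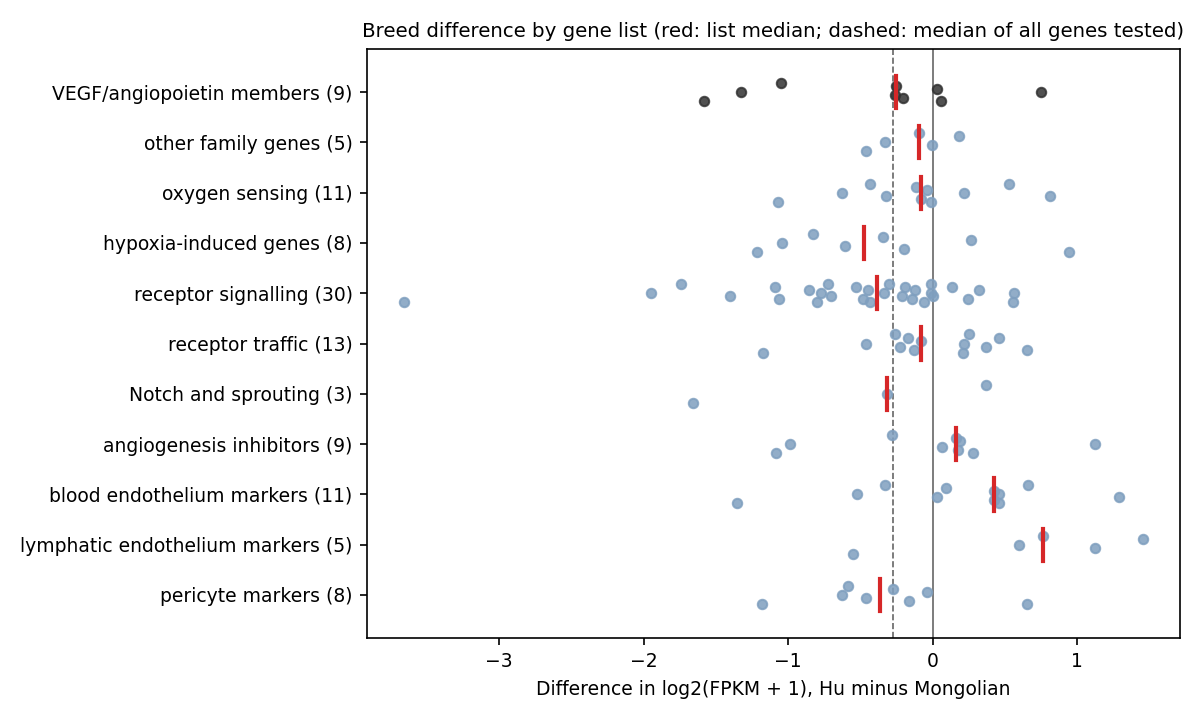
Difference in log2(FPKM + 1), Hu minus Mongolian, of each tested gene by list, with the number tested in brackets; red bars mark list medians, the dashed line the median of all genes tested (-0.28) and the solid line 0. The members spread from -1.58 to 0.75 around a median of -0.26, and the lymphatic markers have a median of 0.76.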

How the data were processed

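The data are RNA-seq values of 6 sheep ovary libraries, 3 per breed. Per the labels' protocols, polyadenylated RNA was made into libraries with a SMARTer kit from 1 μg of total RNA. The authors deposited FPKM values (fragments scaled to transcript length and library total) for 14480 gene rows; the sources used here name no aligner, counting tool, genome build or filter. Columns were matched to samples by the codes in the sample descriptions, and breeds were taken from the titles. FPKM divides by the library total, so a few abundant transcripts lower all others.

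No sequencing depth could be recovered. When genes under 2 FPKM were compared between libraries, no bin of ratios 0.2% wide held more than 0.566% of them. No value above 0 was identical in any of the 15 pairs of libraries. No count model was used, and no interval for counting error is given.

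The 9971 rows that reached 0.5 FPKM in 3 or more libraries were tested on log2(FPKM + 1) with limma 3.58.1 in R 4.3.3 (eBayes with a trend, two-sided, breed as the only factor), with Benjamini-Hochberg adjustment over all of them. A call is an adjusted p under 0.05. Log2 differences are Hu minus Mongolian and understate the change of low genes. The fit was tested on simulated data. The 10 genes described were chosen by symbol, and these genes and the gene lists were chosen with earlier results of these data known. Of 217 genes on the lists, 168 were listed by symbol, none of them through an older symbol. Named genes are the 10 members, the listed genes of their wider family, fixed representatives of each list and the 3 genes most like each tested member; 1 of the representatives is not reported here. PXN, HSPB1, MAPK14, HEY2, EGLN2, MYO6, CD34, ANPEP, MYH11, SMTN and HSD17B1 were named after their values were seen. So were SERPINE2, FST, NR5A2, FSHR, ACTA2, TAGLN, CNN1, DES, PDPN, CCL21, EGFL7, OXT and HSD3B1 as markers. Alternatives were another pseudocount, other filters, 3 scalings, a replicate block, array weights, robust eBayes, covariates and leaving out each library. The lncRNA table was not used here.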

Additional observations from a re-analysis of the deposited data

How the results depend on the processing

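No member passed the threshold under any of the alternatives tried. The count of genes called, 0 with all libraries and equal weights, was 633 with limma array weights (75 higher and 558 lower in Hu), 2 with the mean level of endothelial markers as a covariate, and 0 to 4 when each library was left out in turn (4 without Hu 3, 2 without Hu 2); none of these calls was a member. The array weights were 0.41, 3.64 and 0.25 for Hu 1, 2 and 3 and 2.07, 1.61 and 0.80 for Mongolian 1, 2 and 3. The Hu side of that fit thus rested mainly on Hu 2, a library with few listed genes. FLT4, VEGFA, VEGFB, ANGPT2 and FLT1 kept the sign of their log2 difference under all 16 or 17 alternatives they could be given: FLT4 ran from 0.72 to 1.35, and from 0.49 to 0.96 when each library was left out. VEGFB came as near 0 as -0.04 without Hu 1, and FLT1 as -0.055 with each library's number of listed genes as a covariate. VEGFA reached -0.40 without Mongolian 3 and ANGPT2 -0.43 without Hu 1. VEGFC turned to -0.15 with a pseudocount of 0.1, -0.040 under median-of-ratios scaling, -0.10 after removing the 2 most abundant assembled genes and rescaling to a common sum, -1.03 with array weights and -0.48 with the endothelial covariate, and ran from -0.77 to 0.59 when each library was left out. KDR turned to 0.19 when each library's number of listed genes was a covariate and ran from -0.79 to 0.28, NRP1 turned to -0.0054 after that rescaling and ran from -0.13 to 0.31, and NRP2 turned to 0.13 with array weights. The cause of these turns was not tested. The median of all genes moved from -0.28 to -0.23 by median-of-ratios scaling, to -0.09 by quantile normalization and to -0.37 by the rescaling without those 2 genes. With the replicate number as a block 0 genes were called, as without it; the labels give no pairing, and deviations of same-numbered libraries had correlations of -0.01, -0.03 and -0.18, with 0 of 6 libraries closest to its own number. Members other than VEGFB, NRP1 and NRP2 did not pass a filter at 5 FPKM. The median 95% confidence interval of a gene reached 1.51 to either side on the log2 scale, and depth is unknown.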

Other observations

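Vessel walls also hold pericytes and smooth muscle cells. All 8 pericyte markers on the list were tested and 0 passed, with 7 of 8 differences below 0 and a median of -0.37. Over all genes tested the median was -0.28 and 32.3% of differences were above 0. PDGFRB, the receptor that recruits pericytes, stood at 7.42, 9.66 and 7.14 FPKM in Mongolian and 7.08, 6.79 and 9.73 in Hu. RGS5 stood at 8.27, 20.01 and 0 in Mongolian and at 0, 0 and 74.2 in Hu, so Hu 3 was far above the other 5 libraries. ANPEP stood at 1.12, 0 and 1.33 in Hu, below all Mongolian values (3.28, 3.37 and 2.06), as did 6.05% of all genes tested, with a limma adjusted p of 0.998.

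Smooth muscle genes were far more abundant than any VEGF receptor. Of 7 markers 6 were tested and 0 passed, with a median log2 difference of 0.15, 4 of 6 being above 0: ACTA2 at 0.27, TAGLN at 0.30, CNN1 at 0.50 and DES at 0.03. In the other two, MYH11 and SMTN, all Hu values lay below all Mongolian ones, as in 6.05% of all genes tested. MYH11, the smooth muscle myosin heavy chain, stood at 224, 195 and 303 FPKM in Mongolian and 105, 110.2 and 176 in Hu, a log2 difference of -0.90 with an unadjusted limma p of 0.0627. SMTN stood at 20.01, 14.2 and 41.6 in Mongolian and 14.2, 9.42 and 12.97 in Hu, and the nearest values of the breeds differed little.

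CD34, a surface glycoprotein of endothelium and of blood progenitors, went against PECAM1: it stood at 8.37, 8.15 and 6.16 FPKM in Mongolian and at 0, 4.13 and 6.16 in Hu. All Hu values lay below all Mongolian ones, as in 6.05% of all genes tested, but Hu 3 and Mongolian 3 were nearly equal. HSD17B1, an oestradiol-forming enzyme of granulosa cells, stood at 3.69, 2.46 and 6.52 in Mongolian and at 0, 0 and 0.63 in Hu (unadjusted limma p of 0.00855, adjusted p of 0.998), while INHA and INHBA were highest in Hu 1. No red blood cell marker on the list was listed by symbol.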
